A study of Mus musculus with 2 samples.

Results

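C/EBP proteins are transcription factors with a basic region, which contacts DNA, and a leucine zipper, through which they pair. The family members considered here were Cebpa, Cebpb, Cebpd, Cebpe and Cebpg, taken by gene symbol from a table of 22605 genes. Rows were listed for 4 of these 5 genes, in 5 rows, since Cebpg had a pair of transcripts with the same coding span and the same values. DNase I hypersensitivity had been sequenced once in untreated M1 cells and once after IL-6. M1 is a mouse myeloid leukemia line of progenitor cells, here at passages 15 to 18, and IL-6 was given for 4 to 5 days to make them differentiate. Both groups are the same line, so they share its genotype, and since each was sequenced as 1 library, replicates cannot check any difference. In this assay DNase I cuts open chromatin first, and the reads of short fragments count the cuts. The question put to these libraries was how open the C/EBP genes were in progenitor cells and after IL-6.

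In myeloid cells C/EBPα, the product of Cebpa, starts the granulocyte program and stops division. C/EBPβ, the product of Cebpb, is induced by IL-6 and is used in macrophages and in acute responses. C/EBPδ, the product of Cebpd, is induced by the same cytokine, and C/EBPε acts late in granulocytes. C/EBPγ lacks an activation domain and mostly pairs with other members. Open chromatin at a gene reports how accessible its DNA is in the cells used and does not measure its mRNA or protein.

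The basic region is the part of the coding sequence the family shares most. In-frame stretches of 60 bases of Cebpa were compared in frame with the coding sequences of the other 3 genes with values, without gaps, and the stretch most alike over all 4 is shown to make clear how alike and how separate these genes are. It encodes most of the basic region. Capitals mark the 35 bases that the 4 genes have in common. All are read 5′ to 3′ on the coding strand from NCBIM37, the build of the deposited table.
Cebpa, chr7:35905290-35905349, plus strand: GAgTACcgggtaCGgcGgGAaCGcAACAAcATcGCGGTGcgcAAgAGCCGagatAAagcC
Cebpb, chr2:167515191-167515250, plus strand: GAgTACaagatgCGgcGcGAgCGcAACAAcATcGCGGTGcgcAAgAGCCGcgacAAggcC
Cebpe, chr14:55329547-55329606, minus strand: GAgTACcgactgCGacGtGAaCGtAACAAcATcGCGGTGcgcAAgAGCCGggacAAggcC
Cebpg, chr7:35835607-35835666, minus strand: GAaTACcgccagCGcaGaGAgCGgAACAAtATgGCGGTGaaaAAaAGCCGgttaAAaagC

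Cebpb and Cebpe each had 51 of the 60 bases (85.0%) of Cebpa, and Cebpg had 38 (63.3%). Over the whole measured windows of the 4 genes with values, the longest exact run that any of the 6 pairs shared on either strand was 29 bases, between Cebpa and Cebpb. How reads that match more than 1 place were treated is not given in the sources used here.

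Signal was given as the mean and SD over windows of 700 bases that a coding span touches. From these the reads of each span were recovered as whole numbers. 1 read counted 1 in the untreated library and 1.04 in the IL-6 library, which the authors had scaled. Coding spans that do not overlap held 9102320 reads before and 8544903 reads after IL-6, or 7.58 and 7.12 reads per window. Intervals below are 95% intervals (Clopper-Pearson for ratios, exact Poisson for levels). They hold counting error alone, so they set 1 library against the other and say nothing of the spread between cultures. As a check of the label, all 5 progenitor markers had reads in both libraries, with means of 4.10 (Kit) to 53.4 (Flt3) reads per window in untreated cells. Erythroid markers ranged from 4.83 (Gata1) to 51.6 (Klf1) reads per window, so signal over coding spans did not set the progenitor list apart. With the deposited scaling 4 of the 5 progenitor markers were lower after IL-6, as were 5 of 6 macrophage and 2 of 3 erythroid markers, and 47.4% of 19569 genes with 22 or more reads over both libraries. The interval lay wholly below 1 at 2, 5 and 1 of these markers. With the scaling by strong single windows, described with the ratios of the members, 0 of 5, 1 of 6 (Cd68) and 0 of 3 were lower, and 4.38% of genes. At the median macrophage marker 87.5% of genes with the same number of windows had less untreated signal. The share was 49.1% at the median progenitor marker and 65.7% at the median erythroid marker. Neither the 3 marker lists nor all genes are thus matched in strength. The fold calls that follow use the deposited scaling. At least 2-fold lower were the macrophage markers Cd68 (ratio 0.201, 0.155 to 0.258), Cd14 and Fcgr1 (0.423, 0.356 to 0.4997) and the erythroid Klf1 (0.398, 0.313 to 0.504). The share of other cell types in these ratios was not tested.

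Which part of each gene was measured differed between the members. Cebpb is a gene of 1 exon on chromosome 2, from 167514415 to 167515918 on the plus strand. Its 2 windows, 167514201 to 167515600, are the only ones among the 4 genes that hold a start site, with 214 bases upstream of it. They also hold the whole coding sequence of 891 bases. Cebpa, on chromosome 7 from 35904312 to 35906945 (plus strand), also has 1 exon, and its 2 windows (35904401 to 35905800) begin 89 bases after the start site and hold only exon. Cebpe, on chromosome 14 from 55329200 to 55331011 (minus strand), has 2 exons. Its 3 windows (55328701 to 55330800) begin 211 bases after the start site and hold 846 coding bases, 574 bases of intron and 499 bases past the 3′ end of the gene. Cebpg lies on chromosome 7 from 35831441 to 35841522 (minus strand), and its 2 windows (35835101 to 35836500) lie 4459 bases or more from the nearest of its 2 start sites. No other listed gene shares a window with any of the 4. Cebpd (chromosome 16, 15887379 to 15888559, plus strand) is typed as a pseudogene in GENCODE M1, the annotation whose coding spans the table follows, with 2 exons that are 1 base apart and 0 coding spans. Its signal was not analysed here.

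**Figure D1:**
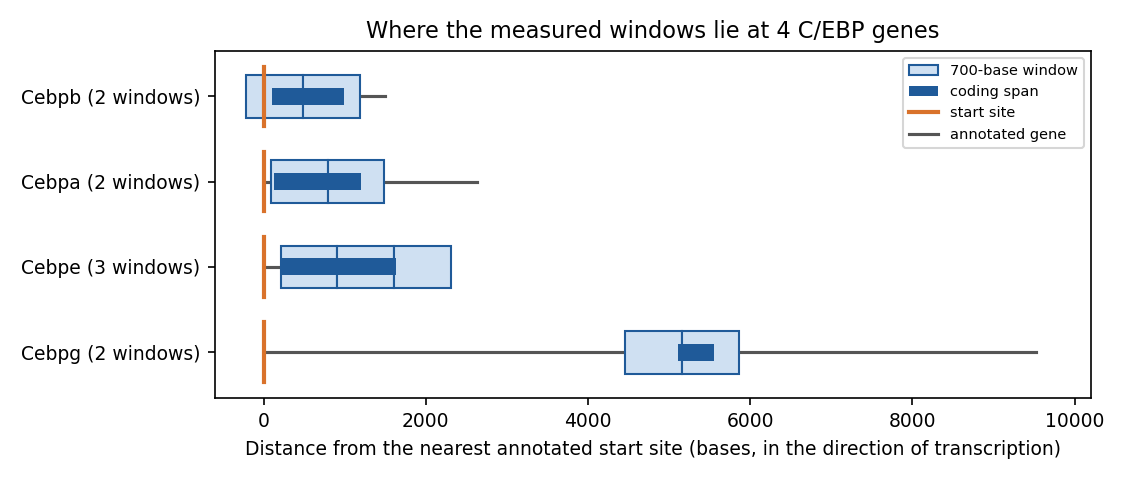
Position of the 700-base windows (light boxes) and coding spans (dark bars) of Cebpb, Cebpa, Cebpe and Cebpg against the nearest annotated start site at 0, in bases in the direction of transcription. The windows of Cebpb span the start site, those of Cebpa and Cebpe begin 89 and 211 bases after it, and those of Cebpg lie 4459 bases or more downstream.

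Since Cebpb is the member whose promoter end was measured, the 214 bases upstream of its start site that lie in its windows are shown, with matches to the core of the cAMP response element in capitals. They lie at chr2:167514201-167514414 (NCBIM37, plus strand), and the same bases stand in the RefSeq promoter of Cebpb.
Cebpb upstream bases: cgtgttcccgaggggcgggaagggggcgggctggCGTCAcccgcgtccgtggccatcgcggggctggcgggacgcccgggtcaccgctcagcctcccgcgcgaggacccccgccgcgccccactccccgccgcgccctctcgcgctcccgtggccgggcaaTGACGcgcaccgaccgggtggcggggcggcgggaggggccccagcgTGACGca
The letters TGACG, read on both strands, begin 180, 53 and 7 bases upstream of the start site. At least 1 such match was found in 16.3% of 32851 RefSeq promoters (GRCm38.p6) over the same 214 bases. The GC box letters GGGCGG had 3 matches, against at least 1 in 31.5% of promoters. No match was found for TATAAA (10.7% of promoters), CCAAT (30.6%), the C/EBP letters TTGCNNCAA (1.45%), the STAT letters TTCNNNGAA (5.87%) or the PU.1 letters GAGGAA (20.2%). GC content of these 214 bases of Cebpb was 81.3%, and the promoters compared were not matched for it. The part of base composition in these matches was not tested. A match is a description of the letters and not a bound site.

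In untreated M1 cells Cebpb and Cebpe were strongly open, Cebpa was open at a lower level, and Cebpg was near the typical short gene. Cebpb had 181 reads in 2 windows, a mean of 90.5 reads per window (95% interval 77.8 to 105). Cebpe had 263 reads in 3 windows, a mean of 87.7 (77.4 to 98.9). The ratio of these 2 means was 1.03 (0.850 to 1.25), so their order was not resolved. Cebpa had 93 reads in 2 windows, a mean of 46.5 (37.5 to 57.0), and Cebpb was 1.95 times as high (1.51 to 2.53). Cebpg had 9 reads, a mean of 4.5 (2.06 to 8.54), 10.3 times lower than Cebpa (5.22 to 23.3). These 2 genes are neighbors, with 68.6 kb between their coding spans.

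Short spans differ from long ones in how much of a promoter they hold, so each gene was placed among genes with the same number of windows. Of 2780 other genes with 2 windows, whose median was 5 reads per window, 95.1% were below Cebpb, 92.3% below Cebpa and 46.5% below Cebpg. Of 1534 other genes with 3 windows, with a median of 6, 95.8% were below Cebpe. Olfactory, vomeronasal and taste receptor genes made up 32.5% of the genes with 2 windows. Without them, a choice made after seeing the data, 92.9% were below Cebpb, 88.8% below Cebpa and 39.7% below Cebpg, and 94.2% of those with 3 windows were below Cebpe. The authors counted hypersensitive sites over the genome at more than 21 reads, and using this threshold on means over windows was a choice made here. A mean over 21 reads was reached by 3 of the 4 members, and by 11.9% of genes with 2 windows and 16.6% of genes with 3.

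Base composition differed between the members and did not follow the order of their levels. GC content of the windows was 76.3% at Cebpb, above all other genes with 2 windows, 70.4% at Cebpa, 57.4% at Cebpe and 44.3% at Cebpg. CpG dinucleotides numbered 16.4 per 100 bases at Cebpb, 11.1 at Cebpa, 2.48 at Cebpe and 1.86 at Cebpg. Cebpe therefore had the level of Cebpb with far fewer CpG. Among genes with the same number of windows and GC content within 5 percentage points, 67.2% of 67 were below Cebpa, 88.9% of 442 below Cebpe and 51.6% of 1396 below Cebpg. For Cebpb only 10 genes could be compared in this way, and 70.0% of these were below it. The part of GC content in the levels was not tested.

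In IL-6-treated M1 cells Cebpe was the highest member, and Cebpe, Cebpb and Cebpa were nearer to Cebpg than in untreated cells. Cebpe had 104 reads and 36.0 scaled reads per window (29.4 to 43.6). Cebpb had 46 reads and a scaled mean of 23.9 (17.5 to 31.8). Cebpe was 1.51 times as high as Cebpb (1.06 to 2.18), where the 2 had not differed beyond counting error in untreated cells. Cebpa had 29 reads and a scaled mean of 15.1 (10.1 to 21.6), and the ratio of Cebpb to Cebpa was 1.59 (0.975 to 2.62), which did not resolve their order. The ratio of Cebpe to Cebpa was 1.89 (1.48 to 2.41) in untreated cells and 2.39 (1.57 to 3.74) after IL-6. Cebpg had 15 reads and a scaled mean of 7.79 (4.36 to 12.8), so that Cebpa was 1.93 times as high (1.00 to 3.88) in place of 10.3 times. The means of Cebpe and Cebpb were above 21, the latter with an interval that holds 21, as were those of 9.24% of genes with 2 windows and 12.0% of genes with 3. Of genes with the same number of windows, 96.9% were below Cebpe, 92.8% below Cebpb, 82.4% below Cebpa and 57.6% below Cebpg. These 12 ratios between members, 6 in each library, carry intervals that were not adjusted for their number.

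The reads of single windows show where the strong signal lay. With 2 windows, a sum and an SD fix both values, though not which window is which. In untreated cells the windows of Cebpb held 113 (93.1 to 136) and 68 (52.8 to 86.2) reads, and those of Cebpa 65 (50.2 to 82.8) and 28 (18.6 to 40.5). In both genes the intervals of the pair did not overlap. The 3 windows of Cebpe held either 151, 74 and 38 reads or 134, 106 and 23 reads, which give the same sum and SD. Under either reading all 3 windows were above 21 reads and the strongest held more reads than either window of Cebpb. Its interval overlapped that of the stronger Cebpb window under both readings, but not that of the weaker one. The windows of Cebpg held 7 and 2 reads.

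After IL-6 the windows of Cebpb held 25 and 21 reads and those of Cebpe 37, 36 and 31 reads, so the differences between windows were within counting error in both genes. The windows of Cebpa held 20 and 9 reads, and those of Cebpg 10 and 5. The SD over windows, as a share of the mean, went from 0.352 to 0.123 at Cebpb and from 0.658 to 0.0927 at Cebpe, and was 0.563 and 0.536 at Cebpa. Among 39 genes with 3 windows and untreated signal within 25% of Cebpe, the median share went from 1.08 to 0.772, and 34 of 39 had a lower share after IL-6. None of the 39 had as even a signal after IL-6 as Cebpe. Among 68 genes matched to Cebpb in this way the median went from 0.625 to 0.419, and 44 had a lower share after IL-6. Of these 68, 16.2% were more even than Cebpb after IL-6. Among 48 genes matched to Cebpa the median went from 0.548 to 0.376, and 36 had a lower share. Of these 48, 58.3% were more even than Cebpa after IL-6.

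**Figure D2:**
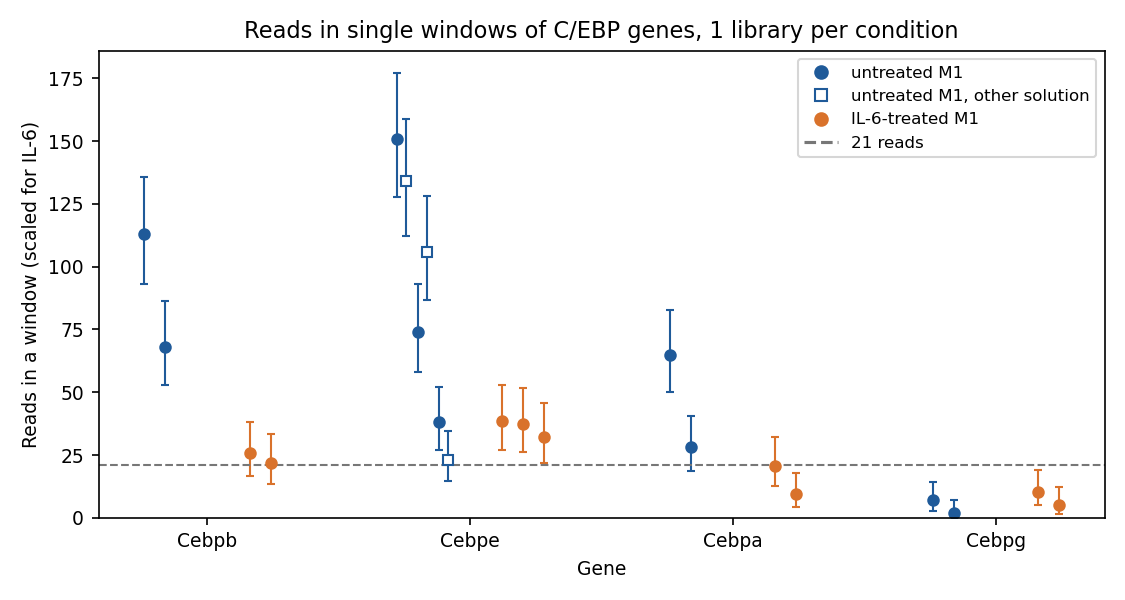
Reads in each 700-base window of Cebpb, Cebpe, Cebpa and Cebpg in untreated M1 cells (blue) and IL-6-treated M1 cells (orange, scaled reads), with 95% Poisson intervals as bars and the threshold of 21 reads dashed; windows are ordered by size, not by position, and open squares give the other solution for Cebpe. Windows of Cebpb went from 113 and 68 reads to scaled values of 26.0 and 21.8, and those of Cebpe ended between 32.2 and 38.4.

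Between the 2 libraries with the deposited scaling, signal was lower after IL-6 at Cebpb, Cebpa and Cebpe, and not resolved at Cebpg. The ratio of IL-6-treated to untreated cells was 0.264 at Cebpb (0.187 to 0.366), a log2 ratio of -1.91 and a 3.79-fold lower signal. At Cebpa it was 0.324 (0.206 to 0.496), a log2 ratio of -1.61. At Cebpe it was 0.411 (0.324 to 0.517), a log2 ratio of -1.28. At Cebpg it was 1.73 (0.709 to 4.48), a log2 ratio of 0.76, with an interval that holds equality. Log2 ratios were taken after adding 0.5 reads to each library. All 4 readings depended on the scaling between libraries. With the median of ratios over strong single windows, which raises log2 ratios by up to 1.62, Cebpa had -0.01 (-0.66 to 0.61), Cebpb -0.30 (-0.80 to 0.17) and Cebpe 0.34 (-0.0046 to 0.67). None of these was resolved from no change, whereas Cebpg was higher at 2.35 (1.13 to 3.79).

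Differences between members do not depend on the scaling. The ratio at Cebpe was 1.55 times that at Cebpb (1.03 to 2.37), and 1.27 times that at Cebpa (0.774 to 2.12). Cebpb and Cebpa differed by a factor of 0.815 (0.467 to 1.44), so their changes could not be told apart. The ratio at Cebpg was 5.27 times that of its neighbor Cebpa (1.93 to 15.2), 6.49 times that of Cebpb (2.48 to 18.0) and 4.20 times that of Cebpe (1.66 to 11.2). Cebpg thus stood apart from the other 3, on 24 reads in all. Genes of its untreated level were also higher at the median, with a log2 ratio of 0.39 under the deposited scaling (509 genes with 2 windows, signal within 25%).

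A signal at least 2-fold lower after IL-6 was found at 3 of the 4 members, and at 12.7% of 19569 genes with 22 or more reads over both libraries. The share was 18.8% among those with 2 windows and 17.9% among those with 3. At least 2-fold higher signal was found at 0 of the 4 members and 2.27% of genes. With the scaling by strong windows 0 members and 0.21% of genes were at least 2-fold lower, and 1 member (Cebpg) and 78.6% of genes were at least 2-fold higher. With the deposited scaling 1 member (Cebpg) and 11.8% of genes were at least 1.5-fold higher. The median log2 ratio was -1.45 over the 4 members and 0.05 over all these genes. No test was made with 1 library per condition, so there is no count at an unadjusted p.

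These shares changed once genes of like strength were compared. Of 48 genes with 2 windows and untreated signal within 25% of Cebpa, 79.2% were at least 2-fold lower, with a median log2 ratio of -1.44, and 37.5% had a lower ratio than Cebpa. Of 68 such genes for Cebpb, 98.5% were at least 2-fold lower, with a median of -1.84, and 42.6% had a lower ratio than Cebpb. Of 39 genes with 3 windows and the untreated signal of Cebpe, 97.4% were at least 2-fold lower, with a median of -1.76, and 94.9% had a lower ratio than Cebpe. Matching on untreated signal alone favors genes that were high in that library, so genes were also matched on other signals. With summed signal within 25%, 17.6% of 85 genes had a lower ratio than Cebpa, 42.5% of 73 a lower ratio than Cebpb and 90.0% of 40 a lower ratio than Cebpe. With signal after IL-6 within 25%, 6.78% of 398 genes had a lower ratio than Cebpa, 15.3% of 229 a lower ratio than Cebpb and 50.0% of 70 a lower ratio than Cebpe. In these sets matched after IL-6 the median log2 ratios were 0.31, 0.05 and -1.26, and 33.2%, 48.5% and 68.6% of genes were lower. Cebpg was at 72.1% of 509 genes matched on untreated signal and at 68.0% of 565 matched after IL-6. The median log2 ratios of these were 0.39 and 0.36, and 26.9% and 28.1% of the genes were lower.

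**Figure D3:**
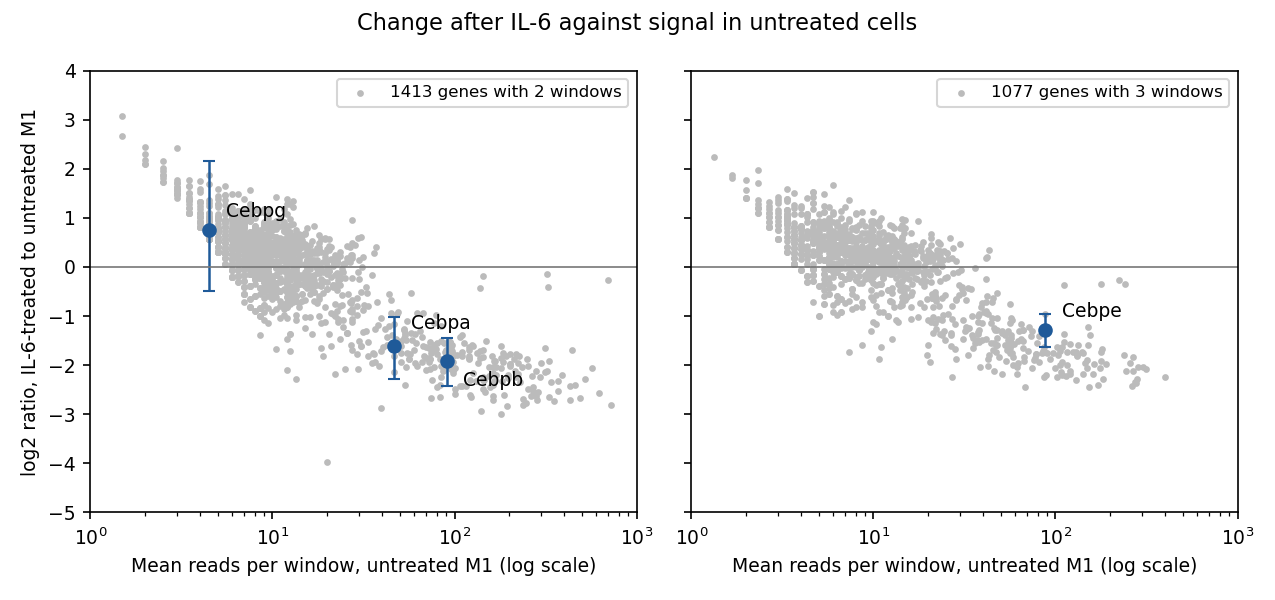
Log2 ratio of IL-6-treated to untreated M1 cells against mean reads per window in untreated cells (log axis) for 1413 genes with 2 windows (left) and 1077 genes with 3 windows (right) that had 22 or more reads over both libraries; blue points are C/EBP genes with 95% counting intervals, and 1 gene with 2 windows lies outside the axes. Ratios drop as untreated signal rises, Cebpa (-1.61) and Cebpb (-1.91) lie within the cloud at their level, and Cebpe (-1.28) lies near its upper edge. Untreated signal is also the denominator of the ratio, so the axes are not independent.

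By the distance of log2 reads in both libraries, taken over these 2 libraries, the 2-window genes most like Cebpb were AI462493 (183 and 45 reads) and 1700024N20Rik (185 and 45 reads). Those most like Cebpa were Tifab (102 and 29 reads) and Trav3-1 (85 and 30 reads). The 3-window genes most like Cebpe were 2310033P09Rik (245 and 89 reads) and 1810049H13Rik (305 and 94 reads), which were less near to it than the closest genes of Cebpb were. For Cebpg, 7 genes had its very values of 9 and 15 reads, Gm2221 and Gm8973 among them.

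Of the genes next to the 3 strong members, Tmem189, Ptpn1, Slc7a8 and Slc7a10 had ratios with intervals above that of their neighbor in the family, a difference that no scaling between the libraries alters, while that of 1700123O20Rik overlapped. Their values are given with the deposited scaling. Tmem189, 27.5 kb before Cebpb, had a mean of 29.0 reads per window (SD over 76 windows 49.9) in untreated cells and 17.6 (SD 22.2) after IL-6, a ratio of 0.608 (0.568 to 0.652). Ptpn1, 243 kb after Cebpb, had a ratio of 0.776 (0.711 to 0.846). Slc7a8, 12.1 kb from Cebpe, had means of 15.8 and 15.1 reads per window over 83 windows and a ratio of 0.957 (0.884 to 1.04). On its other side 1700123O20Rik, with 1 window, had 34 and 20 reads and a ratio of 0.611 (0.333 to 1.09). Slc7a10, 66.0 kb from Cebpa, had a ratio of 1.24 (1.04 to 1.49), and Pepd, 6.02 kb from Cebpg, one of 1.08 (1.02 to 1.15). Most of these spans are longer, and their means average strong and weak windows.

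Partners and relatives of the family were split. Atf4, a basic zipper factor of the stress response that pairs with C/EBP proteins, had a mean of 215 reads per window (SD over 4 windows 329) in untreated cells and 49.1 (SD 62.3) after IL-6, a ratio of 0.229 (0.194 to 0.268). Cebpz, which shares the name but has no leucine zipper of this family, had a ratio of 0.474 (0.399 to 0.562) over 25 windows. Ddit3, which pairs with C/EBP proteins and blocks their binding to most sites, had 48 and 31 reads and a ratio of 0.670 (0.413 to 1.08). Atf5 had 57 and 61 reads and a ratio of 1.11 (0.761 to 1.62). Of these 4 genes, 3 were lower and 2 at least 2-fold lower with the deposited scaling, where 47.4% of all genes were lower and 12.7% at least 2-fold lower. Their median log2 ratio was -0.82. At the median of these 4 genes, 85.1% of genes with the same number of windows had less untreated signal. All genes are thus not a match in strength. Scaled by strong windows, 1 of the 4 (Atf4) was lower, beside 4.38% of all genes.

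Of 10 listed regulators of C/EBP genes or proteins, 9 had values. With the deposited scaling 8 of these were lower after IL-6 and 2 at least 2-fold lower, beside the same 47.4% and 12.7% of all genes. Their median log2 ratio was -0.45. Scaled by strong windows, 0 of the 9 were lower, beside 4.38% of all genes. At the median regulator 89.3% of genes with the same number of windows had less untreated signal, so all genes are not a match in strength. Gfi1 was not analysed here. Sfpi1, which encodes PU.1, the factor that works with C/EBPα in myeloid cells, had a mean of 28.9 reads per window in untreated cells and 12.9 after IL-6, a ratio of 0.447 (0.405 to 0.493). Trib1, whose product targets C/EBPα for degradation, had a mean of 63.9 (SD over 9 windows 37.6) and 30.8 (SD 15.0), a ratio of 0.482 (0.415 to 0.558). Its relative Trib2 had a ratio of 1.36 (1.14 to 1.62). Among genes of the IL-6 pathway, ratios were 0.765 (0.697 to 0.838) at the receptor gene Il6ra, 0.958 (0.819 to 1.12) at its signaling partner Il6st, 0.887 (0.792 to 0.992) at Stat3 and 0.692 (0.326 to 1.43) at the feedback inhibitor Socs3, on 21 and 14 reads.

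All 16 genes listed as C/EBP targets in myeloid cells had values. At the median target 56.3% of genes with the same number of windows had less untreated signal. Scaled by strong windows, 0 of the 16 targets were lower, beside 4.38% of all genes. With the deposited scaling 5 were lower and 11 higher, 2 were at least 2-fold lower, and the median log2 ratio was 0.17. Over all genes 9266 were lower and 10303 higher, and the 12.7% at least 2-fold lower is near the share of these targets. The 2 were Prtn3, a granule protease, with 309 and 111 reads and a ratio of 0.373 (0.297 to 0.465), and Cd14, the coreceptor for endotoxin, with 152 and 59 reads and a ratio of 0.403 (0.293 to 0.548). Csf1r, the macrophage growth factor receptor, had a ratio of 0.566 (0.507 to 0.631). The other lower targets were the granule protease genes Ctsg, with a ratio of 0.537 (0.399 to 0.718), and Elane, with 0.709 (0.465 to 1.07). Among the 11 higher targets were granule genes of late granulocytes, named after their values were seen. They had 11.0 and 14.8 reads per window at Ltf, 9 and 14.5 at Ngp and 5.25 and 7.27 at Camp. Among genes with the same number of windows, 60.1% were below Ltf, 46.7% below Ngp and 28.8% below Camp in untreated cells. The intervals of Ltf (1.18 to 1.55) and Ngp (1.09 to 2.40) lay above 1, and that of Camp (0.758 to 2.56) did not. Of genes with the same number of windows, 82.2% had a lower ratio than Ltf, 86.1% than Ngp and 75.4% than Camp. Also higher, with intervals above 1, were Mpo (ratio 1.26, 1.01 to 1.57) and S100a9 (1.57, 1.01 to 2.48). The intervals of the other higher targets held 1. With the scaling by strong windows log2 ratios in these 3 lists would be higher by up to 1.62, and the largest decreases, at Atf4 and Prtn3, would then be -0.51 and 0.20.

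**Figure D4:**
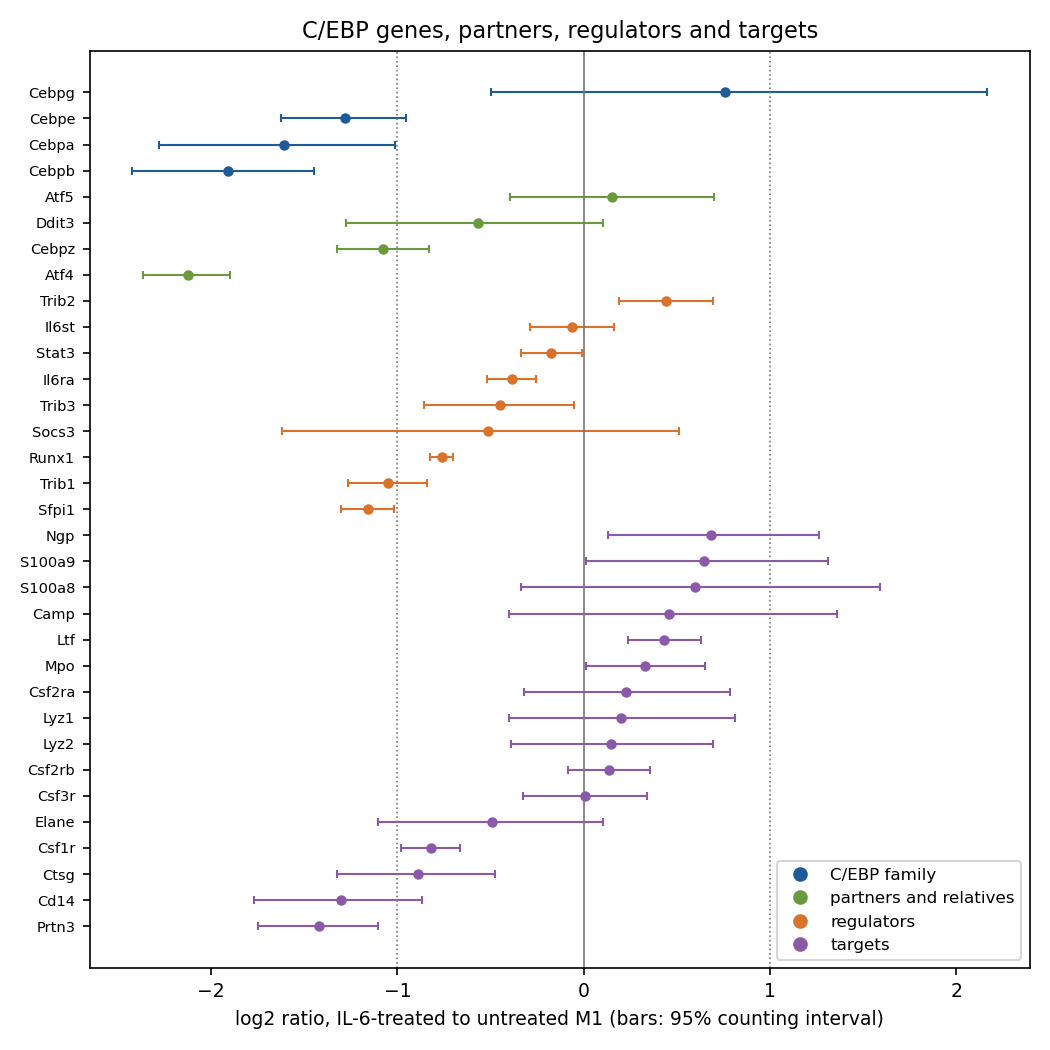
Log2 ratio of IL-6-treated to untreated M1 cells for the C/EBP genes (blue), partners and relatives (green), regulators (orange) and targets (purple), with 95% counting intervals as bars and dotted lines at 2-fold. With the deposited scaling Cebpa, Cebpb and Cebpe lie at -1.28 or below, and 11 of the 16 targets lie above 0. Of 19569 genes with 22 or more reads over both libraries, 10303 were higher. Members and targets are not matched in strength. In untreated cells 92.3% of genes with the same number of windows were below Cebpa, 95.1% below Cebpb and 95.8% below Cebpe. At the median target the share was 56.3%.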

How the data were processed

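Per the labels, DNase I hypersensitivity was sequenced in 1 library of M1 cells and in 1 of IL-6-treated M1 cells. The authors aligned reads to NCBIM37 with BWA (version not given in the sources used here) and summarised them in Seqmonk. The deposited signal values are the mean and SD of reads in 700-base windows over each coding span, with the number of windows beside them. For a gene with several spans, the one with most windows was taken.

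Mean times window number gave whole reads (within 0.05) in 100% of 55432 spans, after dividing the IL-6 library by its constant of 1.04. Recovered reads were 9102320 and 8544903 over coding spans that do not overlap. Single windows were solved from sum and SD. Ratios carry exact Clopper-Pearson and levels exact Poisson intervals (95%, counting error only). Fold calls used genes with 22 or more reads over both libraries, and log2 ratios added 0.5 reads. With 1 library per condition no test was made. Positions come from GENCODE M1. Python 3.11.15, numpy 2.4.6, pandas 2.3.3, scipy 1.17.1 and matplotlib 3.10.9 were used. On simulated data for 4316 genes of 2 or 3 windows, all 4316 totals were recovered, and 196 of 200 intervals held the simulated fold.

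Genes named were the members, list genes with a fold of at least 2, the nearest gene on each side and the 2 genes most like each member. Other list genes were named after their values were seen. Members and lists were chosen with earlier results of these data known. Alternatives were other scalings, added reads, folds, spans and sets of compared genes. Cebpd and Gfi1 were not analysed here. A marker list and a sequence that had been planned are not reported here.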

Additional observations from a re-analysis of the deposited data

How the results depend on the processing

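No paired analysis was possible because neither condition was sequenced in replicate, and so no library could be left out either. Of 100 alternatives over 20 results, 40 kept the value within the margin set for it, 59 moved it and 1 reversed it. The margin was the counting interval for log2 ratios, the interval of a share of the genes compared for percentiles and 1.5 times for counts of members. Of the 28 alternative log2 ratios, 24 stayed within counting error. The others came from scaling by the median of ratios over 186 strong single windows, which raises log2 ratios by up to 1.62 (less where the added 0.5 reads weigh more) and gave -0.0055 at Cebpa, -0.30 at Cebpb, 0.34 at Cebpe (the reversed value) and 2.35 at Cebpg, with intervals that hold 0 at the first 3 and not at Cebpg. That scaling sets the median of strong windows to no change, and with it 0 members were lower by 2-fold or more and 1 (Cebpg) was higher by as much, beside 0.21% and 78.6% of all genes. At a fold of 1.5, 1 member (Cebpg) was higher, beside 11.8% of all genes. No scaling and scaling by total reads moved log2 ratios by only -0.05 and 0.04. The span with fewest windows gave the same ratio at all 4 members, so that alternative could not move it. The number of log2 ratios that stayed within counting error therefore says little of how firm they are.

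The place of a member's log2 ratio depended on the genes compared. The share of genes with a lower ratio than Cebpa was 8.24% among genes with the same number of windows, 37.5% with untreated signal matched within 25%, 17.6% with summed signal matched, 32.8% with GC matched, 13.2% with 22 or more reads, 4.19% over all genes and 11.4% without receptor families, the last chosen after seeing the data. In the same order it was 5.36%, 42.6%, 42.5%, 10.0%, 8.64%, 1.97% and 7.36% for Cebpb, then 10.8%, 94.9%, 90.0%, 22.4%, 14.3%, 7.98% and 14.7% for Cebpe. For Cebpg it was 75.2%, 72.1%, 68.5%, 73.1%, 82.0%, 91.2% and 80.2%, and 77.1% with the window number within 1. The share of genes with less untreated signal ranged over the alternatives from 67.2% to 95.2% for Cebpa, 70.0% to 98.2% for Cebpb, 88.9% to 98.1% for Cebpe and 28.0% to 51.6% for Cebpg. For signal after IL-6 the ranges were 58.2% to 83.8%, 70.0% to 95.8%, 92.1% to 98.8% and 47.4% to 66.5%, and 15 of 16 alternatives moved the value. Depth limits Cebpg most, with 9 and 15 reads. Which window is which, and signal outside the coding windows, cannot be read from these values.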
